A study of Mus musculus with 4 samples.

Results

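The genes examined were 10 genes of prostaglandin synthesis and signalling in cultured mouse podocytes, 7 that make or break down prostaglandins (Pla2g4a, Ptgs1, Ptgs2, Ptges, Ptges2, Ptgis and Hpgd) and 3 receptors (Ptger1, Ptger2 and Ptger4). They were chosen by gene symbol, with earlier results of these data known. Each symbol matched 1 row of the deposited table, and they are 10 of the 54532 genes in it. Cells of the MPC5 line, a conditionally immortalized mouse podocyte line, were exposed for 6 h to IL-12 at a dose of 400 ng/ml (the IL-12 treatment group, 2 libraries) or to saline (the control group, 2 libraries). According to the methods such cells divide in the presence of interferon-γ at a permissive temperature and differentiate once it is withdrawn, so every library came from 1 cell line and none from kidney tissue. No source used here says whether the libraries of a group were separate cultures, so the p-values measure only the spread between these libraries, which may be technical.

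Prostaglandins are short-lived lipid signals that cells make on demand. Cytosolic phospholipase A2 frees arachidonic acid from membrane phospholipids, the cyclooxygenases COX-1 and COX-2 turn it into the unstable endoperoxide that all prostanoids derive from, and terminal synthases turn that into prostaglandin E2, prostacyclin and others. Prostaglandin E2 acts on its own cell or on neighbours through receptors of the EP family, and in the glomerulus this system influences blood flow and the filtration barrier.

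Of the 10 genes, the inducible cyclooxygenase gene Ptgs2 and the phospholipase gene Pla2g4a rose clearly after IL-12, Ptgs2 by 3.07-fold and Pla2g4a by 1.66-fold. Ptges2, a prostaglandin E synthase gene, passed the test narrowly at 1.21-fold. The other tested genes, Ptgs1, Ptger1 and Ptger4, did not pass it. Ptges and Ptgis had too few reads to be tested, and Hpgd and Ptger2 had no read in any library. The test was edgeR's quasi-likelihood test on the read counts, with p-values adjusted by Benjamini-Hochberg over the 14095 genes that had enough reads, and a gene was said to have risen or fallen when its adjusted p was below 0.05. Of the 6 members tested, 3 rose and 0 fell, and the median log2 fold change of the 6 was 0.34 against -0.0022 over all genes tested. Because the members were chosen with earlier results of these data known, this count and median are a description only. Among all genes tested, 16.1% rose and 14.4% fell, 30.5% in all. With the study's second criterion, a change over 2-fold, 1 member was called, Ptgs2, where 0.858% of all genes tested were called higher, 0.752% lower and 1.61% in either direction. In 5 of the 6 both IL-12 libraries lay above both control libraries, which held for 31.7% of all genes tested, with 31.2% below and 62.9% not overlapping in either direction. Ptger4 was the exception.

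**Figure D1:**
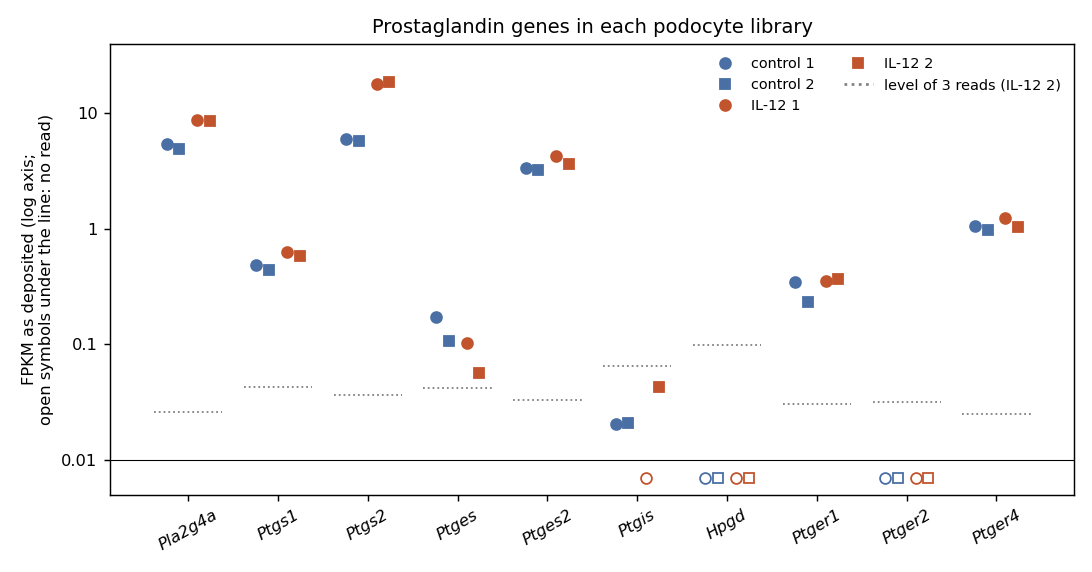
Deposited FPKM (reads scaled to gene length and library size, log axis) of the 10 prostaglandin genes in each of the 4 libraries, blue for control and orange for IL-12. Filled symbols are libraries with a read, open symbols under the horizontal line are libraries with none, and dotted lines mark the level that 3 reads would give in IL-12 library 2. Ptgs2 and Pla2g4a are the highest in every library, and in both the IL-12 libraries stand above the control libraries.

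The total counts were 18355379 to 20098012 per library, so that 3 reads, taken as the smallest number that shows a level, corresponded to 0.151 to 0.166 CPM, the read count scaled with the TMM factors to a library of 1000000 reads. Intervals and limits from read numbers cover counting error only. The podocyte label was checked against markers. Synpo, the gene of the foot process protein synaptopodin, had 31.7 to 51.3 FPKM and Podxl (podocalyxin) 9.58 to 13.3 FPKM, but the slit diaphragm gene Nphs1 had 1 read over the 4 libraries, and Wt1 had 4 to 16 reads per library. Of 16 podocyte markers 14 had a read, 10 were tested, 5 rose and 1, Synpo, fell (log2 fold change -0.66), and their summed level went from between 773 and 784 to between 909 and 925 FPKM. Of 13 leukocyte markers 8 had a read, 3 were tested, 0 rose and 2 fell. Their sum was 18.3 to 18.4 FPKM in the control group and 12.4 to 13.8 FPKM in the IL-12 treatment group. The 2 that fell were Csf1r, with 1294 reads over the 4 libraries, and Cd14. The log2 fold change of Cd14 ran from -0.73 to -0.54 over the alternative settings listed below. Adgre1 had 0 reads in every library and Ptprc 1 to 12 reads. Sums over 9 tubule markers (116 to 121 against 83.9 to 85.9 FPKM), 9 mesangial or fibroblast markers (91.5 to 92.3 against 101 to 102 FPKM) and 9 endothelial markers (1.77 to 1.91 against 1.42 to 1.6 FPKM) also differed between the groups. Of the tubule markers 4 were tested, 0 rose and 3 fell. Of the mesangial or fibroblast markers 5 were tested, 3 rose and 1 fell. Of the endothelial markers 2 were tested, 0 rose and 0 fell. Among all genes tested, 16.1% rose and 14.4% fell. The part of these marker differences in the results was not tested, and fewer cells of a kind cannot be told apart from less RNA per cell.

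Release of arachidonic acid comes first. Pla2g4a (ENSMUSG00000056220) encodes cytosolic phospholipase A2 alpha, the calcium-dependent enzyme that prefers arachidonic acid, and lies on the minus strand of chromosome 1 from 149829618 to 149961290 (GRCm38). Its level was 34.6 and 31.7 CPM in the control libraries against 55.7 and 54.7 CPM in the IL-12 libraries. The groups did not overlap, and the lower IL-12 library was well above the higher control library. The log2 fold change was 0.73 (standard error, SE, 0.06, 95% interval 0.60 to 0.87) with an adjusted p of 6.45e-08 by edgeR's quasi-likelihood test, and 2.32% of the genes tested had a larger log2 fold change. The interval, 1.51-fold to 1.83-fold, lay wholly under the 2-fold criterion.

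Ptgs2 (ENSMUSG00000032487), the gene of COX-2, is the inducible cyclooxygenase gene and the target of many anti-inflammatory drugs. It lies on the plus strand of chromosome 1 from 150100031 to 150108227. The libraries held 527 and 501 reads of it in the control group and 1618 and 1544 in the IL-12 treatment group, or 27.8 and 26.5 CPM against 81.8 and 85.3 CPM. Both IL-12 libraries were far above both control libraries, and the spread within a group was small beside the gap between groups. The 95% interval of the log2 fold change of 1.62 was 1.49 to 1.74, or 2.82-fold to 3.35-fold, with an adjusted p of 4.47e-13 by edgeR's quasi-likelihood test. A larger log2 fold change was found for 0.341% of the genes tested. Per length, Ptgs2 stood above 48.0% of the genes tested in the control group and above 76.5% of them in the IL-12 treatment group, so that a gene of middling level moved into the upper part of the distribution.

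Ptgs2 and Pla2g4a are neighbours. Their starts face away from each other across 138740 bases, with no other tested protein-coding gene between them. The next tested protein-coding gene beyond Ptgs2 was Odr4, 253 kb away, which had a log2 fold change of 0.17 (SE 0.08) and an adjusted p of 0.108 by the same edgeR test. Beyond Pla2g4a it was Rgs2, which lies 5825 kb away and had 9 to 19 reads per library, a log2 fold change of -0.16 (SE 0.49) and an adjusted p of 0.85. Of the 4 genes in this order along the chromosome, the 2 prostaglandin genes passed the test and the genes on either side of them did not.

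The sequences before the annotated starts of these 2 genes are shown because both genes rose and stand back to back. RefSeq gave a promoter for 8 of the 10 members, in build GRCm38.p6. The lines give the 250 bases before the start, read on the strand of the gene, with letters in capitals where a searched motif was found, and a short stretch after the Ptgs2 start.
Ptgs2, chr1:150099781-150100030, plus strand: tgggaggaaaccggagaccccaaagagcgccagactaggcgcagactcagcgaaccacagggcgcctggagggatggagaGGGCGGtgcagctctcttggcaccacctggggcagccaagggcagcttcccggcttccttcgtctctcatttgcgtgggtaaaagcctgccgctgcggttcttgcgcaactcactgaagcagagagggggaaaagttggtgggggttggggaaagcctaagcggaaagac
Ptgs2, chr1:150100037-150100060, plus strand, after the start: accactaCGTCACGTGgagtccgc
Pla2g4a, chr1:149961291-149961540, minus strand: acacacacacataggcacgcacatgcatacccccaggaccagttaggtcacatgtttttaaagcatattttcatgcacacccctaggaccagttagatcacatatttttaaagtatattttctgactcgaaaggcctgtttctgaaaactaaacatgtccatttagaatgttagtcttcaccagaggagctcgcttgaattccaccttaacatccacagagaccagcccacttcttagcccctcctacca

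The motifs searched on both strands were the TATA box TATAAA, the CCAAT box, the E-box CACGTG, the core of the cyclic AMP response element TGACG, the AP-1 site TGANTCA, the GC box GGGCGG and the NF-κB motif. In the 250 bases before the annotated start of Ptgs2 the GC box was the only searched motif found, at positions -170 to -165 from that start, and 32.7% of 32851 promoters of this length held it. Sites for C/EBP factors were not searched. Where transcription of Ptgs2 starts in these cells was not tested, so before and after the start refer to the annotation only. In the 50 bases from the start on, a window looked at after the first had been seen, TGACG was found on the minus strand at positions 14 to 18 and the E-box at 17 to 22, so that these matches share bases, as the capitals in the short stretch show. Within 50 bases of the start, 3.49% of all promoters held TGACG and 1.08% the E-box. The Pla2g4a promoter at the deposited start held none of the motifs, and its GC content was 43.2% against 61.6% for Ptgs2 and a median of 52.4% over all promoters. RefSeq lists a second, internal start of Pla2g4a, where TATAAA was found on the minus strand at positions -200 to -195. In the 250 bases before the start, 12.4% of all promoters held TATAAA. The window of 50 bases from the start on also held CCAAT at positions 10 to 14 of this internal start and TATAAA at 5 to 10 of Hpgd. In that window 5.22% of all promoters held CCAAT and 1.34% TATAAA. A match is a description of the letters and does not show that a factor binds there.

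Ptgs1 (ENSMUSG00000047250, chromosome 2 from 36230426 to 36252272) encodes COX-1, the cyclooxygenase that most cells hold at a steady level. It had 36 and 32 reads in the control libraries against 48 and 41 in the IL-12 libraries, or 1.90 and 1.70 CPM against 2.43 and 2.27 CPM. The groups did not overlap, but the log2 fold change of 0.38 had an SE of 0.27 and an adjusted p of 0.318 by edgeR's quasi-likelihood test. Its 95% interval, -0.18 to 0.95, does not overlap the interval of Ptgs2 and leaves room for a change of up to 1.93-fold. Levels of the 2 genes were compared per length, as FPKM. Ptgs2 made up 92.5% and 93.0% of the summed FPKM of both cyclooxygenase genes in the control libraries against 96.6% and 97.0% in the IL-12 libraries. The ratio of Ptgs2 to Ptgs1 was 12.8 ± 0.610 (SD, n = 2) in the control group and 30.3 ± 2.37 (SD, n = 2) after IL-12. The shares did not overlap, and the exact permutation test, two-sided, gave 0.333, which is the smallest p that 2 libraries against 2 allow.

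**Figure D2:**
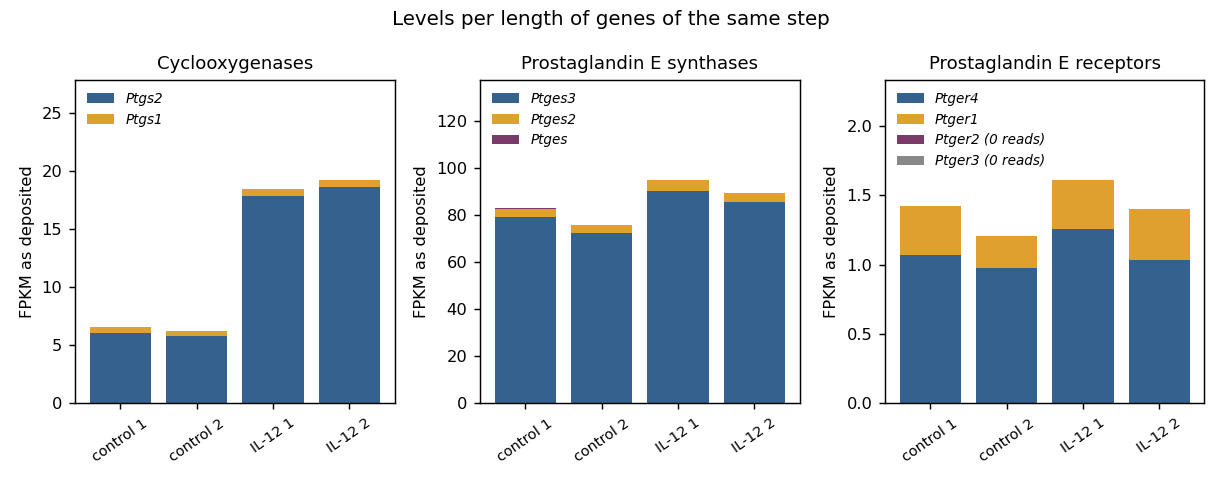
Deposited FPKM of genes that act at the same step, stacked for each of the 4 libraries, with a separate linear axis for each panel that starts at 0. Ptgs2 makes up nearly all of the cyclooxygenase bar in every library, Ptges3 nearly all of the prostaglandin E synthase bar and Ptger4 most of the receptor bar, and only the cyclooxygenase bar is much higher in the IL-12 libraries.

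Of the 3 terminal synthases of prostaglandin E2, Ptges2 and Ptges3 had edgeR intervals of the change that ended at 1.40-fold or lower. For Ptges only an interval for counting error could be given. Ptges2 (ENSMUSG00000026820, chromosome 2 from 32395896 to 32405772), a membrane-associated synthase expressed in many tissues, had 17.0 and 16.3 CPM in the control libraries against 21.6 and 18.6 CPM in the IL-12 libraries. The groups did not overlap, and the first IL-12 library was the high one. The log2 fold change was 0.28 (SE 0.10, 95% interval 0.07 to 0.49) with an adjusted p of 0.0443 by edgeR's quasi-likelihood test. Ptges2 no longer passed when control replicate 1, control replicate 2 or IL-12 replicate 1 was left out, and over 12 alternatives its adjusted p ranged from 0.0291 to 0.378. Ptges (ENSMUSG00000050737, chromosome 2 from 30889471 to 30929863), the microsomal synthase that is often induced together with COX-2, had 13 and 8 reads in the control libraries against 8 and 4 in the IL-12 libraries. With 12 reads against 21, the ratio per library size was 0.555, with a 95% interval by the exact binomial method of 0.249 to 1.18. When the filter on low counts was removed, the log2 fold change of Ptges was -0.80 (SE 0.56) with an adjusted p of 0.518 in the edgeR test. A rise of Ptges beyond 1.18-fold lay outside that counting interval, which leaves out the spread between libraries. Ptges3, the gene of the cytosolic synthase that is also the Hsp90 co-chaperone p23, was the most abundant of the 3 with 79.3 and 72.5 FPKM in the control libraries against 90.3 and 85.5 FPKM in the IL-12 libraries. It took 95.7% ± 0.0942 (SD, n = 2) of the summed synthase FPKM in the control group and 95.6% ± 0.308 (SD, n = 2) after IL-12. The change of Ptges3 on the log2 scale was 0.21 (SE 0.05, adjusted p = 0.00135 by the same edgeR test), and without IL-12 replicate 1 it was 0.15 with an adjusted p of 0.0579.

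For prostacyclin the synthase was nearly absent. Ptgis (ENSMUSG00000017969, chromosome 2 from 167191805 to 167240604), which encodes prostacyclin synthase, had 1 and 1 reads in the control libraries against 0 and 2 in the IL-12 libraries, all under the limit of 3 reads, so no fold change is given. Its receptor gene Ptgir, which is not one of the 10, had 1 and 4 reads in the control libraries against 12 and 11 in the IL-12 libraries. Ptgir passed the filter on low counts only through the IL-12 libraries, where it is high, so no ratio, interval or call is drawn from it.

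Breakdown and transport were represented unevenly. Hpgd (ENSMUSG00000031613, chromosome 8 from 56294585 to 56321043), the gene of the dehydrogenase that starts the inactivation of prostaglandins, had 0 reads in all 4 libraries, which allows a level of up to 0.0902 to 0.0986 FPKM depending on the library. Cbr1, the gene of a carbonyl reductase that can also act on prostaglandins, fell from 29.3 ± 0.150 to 22.1 ± 1.05 FPKM (SD, n = 2), with a log2 fold change of -0.41 (SE 0.05, adjusted p = 9.66e-06 by the same edgeR test). Abcc4, a membrane pump that exports prostaglandins among other substrates, had 47.5 ± 0.00325 FPKM in the control group and 50.1 ± 0.204 FPKM in the IL-12 treatment group (SD, n = 2), with an adjusted p of 0.0783 by the same test. Slco2a1, the prostaglandin uptake carrier, had 10 and 12 reads in the control libraries against 17 and 24 in the IL-12 libraries (adjusted p = 0.141 by the same edgeR test). The export pump was abundant and the uptake carrier had few reads, and neither passed the test.

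Among the receptors for prostaglandin E2, Ptger4 was the main one. Ptger4 (ENSMUSG00000039942, chromosome 15 from 5206661 to 5244187) encodes EP4, which raises cyclic AMP. It had 7.13 and 6.46 CPM in the control libraries against 8.34 and 6.85 CPM in the IL-12 libraries, and the groups overlapped. The log2 fold change was 0.16 (SE 0.15, 95% interval -0.15 to 0.48) with an adjusted p of 0.464 by edgeR's quasi-likelihood test, so a change beyond 1.40-fold upward lay outside the interval. Ptger4 held 78.1% ± 3.67 (SD, n = 2) of the summed FPKM of the 4 EP receptor genes in the control group and 76.0% ± 2.98 (SD, n = 2) after IL-12. Ptger2 (ENSMUSG00000037759, chromosome 14 from 44988195 to 45003820), which encodes EP2, the other receptor that raises cyclic AMP, had 0 reads in all 4 libraries, which allows up to 0.0292 to 0.0320 FPKM. Ptger3, the gene of EP3 and not one of the 10, was at 0 reads in all 4 libraries as well.

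Ptger1 (ENSMUSG00000019464, chromosome 8 from 83666678 to 83672753) encodes EP1, which acts through calcium. It had 36 and 24 reads in the control libraries against 38 and 36 in the IL-12 libraries, or 1.90 and 1.27 CPM against 1.92 and 1.99 CPM. The second control library was the low one and the other 3 were nearly level. The log2 fold change was 0.30 (SE 0.30, 95% interval -0.34 to 0.94) with an adjusted p of 0.512 by edgeR's quasi-likelihood test. No source used here says that strand was used in counting, and the level of Ptger1 is uncertain for this reason as well. Of the other tested members, 15.3% of the exon bases of Ptger4 lie on a pseudogene on the other strand that had 0 reads and 1.23% on Ttc33, which had 1315 reads, and 3.81% of Ptgs1 lie on a transcript of uncertain status that had 0 reads. Ptgs2 and Ptges2 overlapped no other gene of the table, and the small RNA gene inside Pla2g4a shared no exon with it and had 0 reads.

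**Figure D3:**
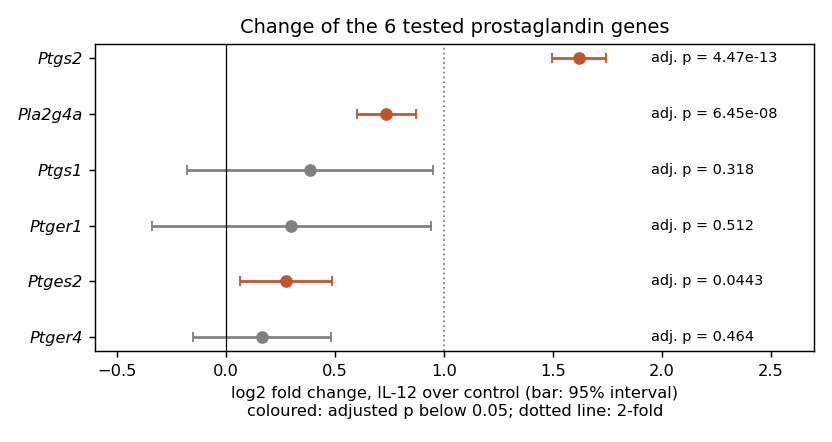
Log2 fold change of the IL-12 treatment group over the control group for the 6 tested prostaglandin genes, with 95% intervals from edgeR's quasi-likelihood fit and the adjusted p beside each. Only the interval of Ptgs2 lies above the dotted line at 2-fold, that of Pla2g4a lies between 0.60 and 0.87, and those of Ptgs1, Ptger1 and Ptger4 include 0.

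Ordered by level per length in the control group, the genes were Ptgs2 at 5.93 ± 0.189 FPKM, Pla2g4a at 5.19 ± 0.313, Ptges2 at 3.29 ± 0.0907, Ptger4 at 1.02 ± 0.0691, Ptgs1 at 0.463 ± 0.0367, Ptger1 at 0.290 ± 0.0811, Ptges at 0.141 ± 0.0470 and Ptgis at 0.0206 FPKM (SD, n = 2), with Hpgd and Ptger2 at 0. The order was the same in the IL-12 treatment group, where Ptgs2 had 18.3 ± 0.551 FPKM and Pla2g4a 8.65 ± 0.108 FPKM (SD, n = 2). Down to Ptgis, no gene's libraries overlapped with those of the next gene in the control group. The ratio of Ptgs2 to Pla2g4a was 1.14 in the control group, the smallest there, and 2.11 in the IL-12 treatment group. The summed level of the 10 genes was 16.4 ± 0.827 FPKM in the control group and 33.1 ± 0.159 FPKM in the IL-12 treatment group (SD, n = 2). Ptgs2 made up 36.3% ± 0.679 of that sum in the control group and 55.2% ± 1.93 in the IL-12 treatment group (SD, n = 2), while Pla2g4a went from 31.7% ± 0.311 to 26.1% ± 0.202 (SD, n = 2).

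The remaining genes of the pathway were read from 5 lists. Lists were matched by gene symbol, and a gene can have more than 1 symbol on a list. Of 21 symbols of other prostanoid enzymes, receptors and transporters, 19 were in the table and 9 were tested. Among them was Ptgir, which entered through the IL-12 libraries alone and is not counted as a change. Of the others Ptges3 rose and Cbr1 fell, where 16.1% of all genes tested rose and 14.4% fell. Of 34 symbols of phospholipases A2 and genes of arachidonic acid handling, 33 were in the table and 23 were tested. Of these 5 rose and 1 fell, or 26.1% against 30.5% of all genes tested, with a median log2 fold change of 0.023. The largest change was that of Mgll, which encodes monoacylglycerol lipase, an enzyme that releases arachidonic acid from the endocannabinoid 2-AG. Mgll had 6.43 and 6.64 FPKM in the control libraries against 14.2 and 13.9 FPKM in the IL-12 libraries, and the log2 fold change was 1.10 (SE 0.06) with an adjusted p of 7.99e-11 by edgeR's quasi-likelihood test. Lpcat2 and Lpcat4, which return fatty acids to lysophospholipids, rose by 0.42 and 0.30 on the log2 scale, and Acsl5 and Acsl4, which join fatty acids to coenzyme A, by 0.38 and 0.35. Pnpla8, the gene of a calcium-independent phospholipase, fell by 0.26 on the log2 scale. Lpcat2, Lpcat4 and Pnpla8 each lost the call when a library was left out, IL-12 replicate 1 for Lpcat2, control replicate 2, IL-12 replicate 1 or IL-12 replicate 2 for Lpcat4 and IL-12 replicate 2 for Pnpla8, with adjusted p of up to 0.0637, 0.110 and 0.0585 over all alternatives.

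Of 21 lipoxygenase, leukotriene and epoxide genes, which draw on the same arachidonic acid, 10 were tested. Of these 0 rose and 2 fell, or 20.0% against 30.5% of all genes tested, with a median log2 fold change of -0.19. Cysltr1, a receptor for cysteinyl leukotrienes, fell by 0.79 on the log2 scale (SE 0.12, adjusted p = 5.63e-05 by edgeR's quasi-likelihood test). Ephx1, which encodes microsomal epoxide hydrolase, fell by 0.35 (SE 0.03, adjusted p = 2.95e-07 by the same test), from 141 ± 0.549 to 111 ± 1.25 FPKM (SD, n = 2).

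**Figure D4:**
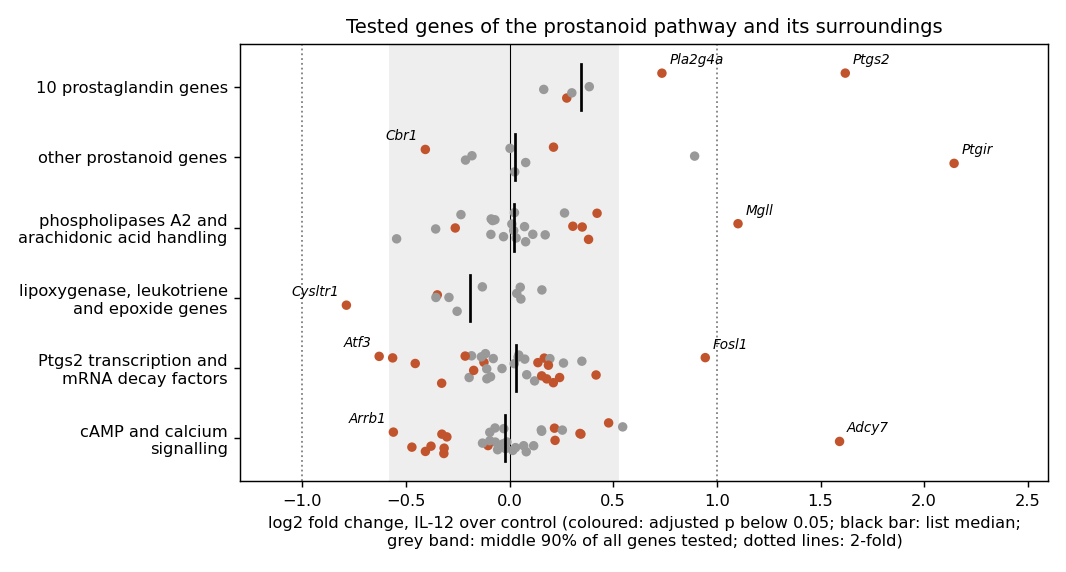
Log2 fold change of every tested gene in 6 lists around prostaglandin synthesis (1 point per gene, vertical scatter has no meaning), coloured where the adjusted p was below 0.05, with the list median as a black bar and the middle 90% of all genes tested as a grey band from -0.58 to 0.52. Ptgs2, Ptgir, Mgll and Adcy7 are the only points past a dotted 2-fold line. Ptgir was tested only through its IL-12 libraries, so the place and colour of its point are not read as a change, and the median bar of its list includes it.

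Of 35 genes known to act on Ptgs2 transcription or on the decay of its mRNA, 34 were tested. Of these 9 rose and 7 fell, or 47.1% against 30.5% of all genes tested. Their median log2 fold change was 0.031, with no change over 2-fold. Fosl1, a Fos family partner in AP-1, rose from 15.8 ± 0.521 to 30.4 ± 2.20 FPKM (SD, n = 2), with a log2 fold change of 0.94 (SE 0.07, adjusted p = 9.08e-09 by edgeR's quasi-likelihood test). Junb rose by 0.42, Elavl1, the gene of an mRNA-stabilizing protein, by 0.21, and Zfp36l2, the gene of an mRNA-destabilizing protein, by 0.19. Cebpd also rose, by 0.24 on the log2 scale, but lost the call without control replicate 1, IL-12 replicate 1 or IL-12 replicate 2 (adjusted p of up to 0.314). Atf3, Celf2 and Jund fell by 0.63, 0.56 and 0.33 on the log2 scale. Fos fell by 0.46 and lost the call without control replicate 2 or IL-12 replicate 1, and Tia1 fell by 0.21. Of the NF-κB subunit genes, Nfkb1 and Nfkb2 rose by 0.18 and 0.17 on the log2 scale, Rela fell by 0.12 (adjusted p = 0.0412 by the same edgeR test), and Relb and Rel, at 0.07 and -0.20, did not pass. Rela lost the call when any of the 4 libraries was left out and with the replicate block (log2 fold change -0.16 to -0.12 over all alternatives), and Nfkb2 without control replicate 2 or IL-12 replicate 1 (adjusted p of up to 0.109). Creb1 had a log2 fold change of 0.04 (adjusted p = 0.612) and Cebpb one of 0.19 (adjusted p = 0.126).

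Of 40 genes of cyclic AMP and calcium signalling, through which the EP receptors act, 34 were tested. Of these 6 rose and 9 fell, or 44.1% against 30.5% of all genes tested, with a median log2 fold change of -0.024. Adcy7, an adenylyl cyclase gene, had 20 and 25 reads in the control libraries against 62 and 74 in the IL-12 libraries, and the log2 fold change was 1.59 (SE 0.28) with an adjusted p of 0.000212 by edgeR's quasi-likelihood test. Adcy6, by far more abundant, fell from 38.6 to 31.1 FPKM, or by 0.32 on the log2 scale (adjusted p = 1.19e-06 by the same test). Arrb1 (β-arrestin 1), Gnai1 (an inhibitory G protein subunit) and Plcb4 (a phospholipase C) fell by 0.56, 0.47 and 0.41 on the log2 scale, and the phosphodiesterase gene Pde7a by 0.33. Plcb1, another phospholipase C gene, fell by 0.38 and lost the call when any of the 4 libraries was left out. Prkar2a, a regulatory subunit of protein kinase A, and the phosphodiesterase gene Pde4a, whose product breaks down cyclic AMP, rose by 0.34 each, and Pde4b rose by 0.22 but lost the call without IL-12 replicate 2 (adjusted p of up to 0.157 over all alternatives). Of the cyclic AMP responsive genes, Sik1 fell by 0.30 on the log2 scale, and Crem and Nr4a1 did not pass the test, with log2 fold changes of -0.13 (adjusted p = 0.396) and 0.03 (adjusted p = 0.86) by the same edgeR test. Nr4a2 rose by 0.48, a call that was lost when any of the 4 libraries was left out.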

How the data were processed

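RNA from 2 IL-12 and 2 control libraries was sequenced. The authors deposited raw counts per gene, whole numbers that were not normalized, and FPKM values, which equal the counts per kilobase and per 1000000 reads times a factor per library of 0.985 to 1.02. The labels name HISAT2, StringTie and the build mm9, with no versions. The deposited coordinates, however, equal those of GENCODE M21 (GRCm38) for 98.3% of 54409 shared genes and all 10 members, and are given in that build.

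Counts were tested with edgeR 4.0.16 in R 4.3.3 (filterByExpr with at least 10 counts and 15 in total, TMM scaling with factors of 0.985 to 1.02, quasi-likelihood test, no replicate block, Benjamini-Hochberg adjustment). The standard error (SE) was taken as the absolute log2 ratio over the root of the F statistic, and 95% intervals use the t distribution of the fit. CPM are TMM-scaled. Levels of different genes were compared only as deposited FPKM. Figures were drawn with matplotlib 3.10.9 in Python 3.11.15.

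Within each group the 2 libraries were further apart than counting noise (chi-square per degree of freedom 2.13 and 2.41). Correlations of log2 CPM were at least 0.994 within and at most 0.989 between groups. Total counts of 18355379 to 20098012 set the precision.

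Members and lists were chosen with earlier results of these data known. The lists of other pathway genes were written from textbook knowledge. The named genes are all 10 members, up to 5 changed genes per list and direction, genes that overlap a member, the nearest tested protein-coding genes of Ptgs2 and Pla2g4a, and a few defining markers. Genes of the lists named without a call, Ptger3, Slco2a1, Abcc4, Creb1, Cebpb, Relb, Rel, Crem and Nr4a1, and the called genes Nfkb1, Nfkb2, Rela, Sik1 and Adcy6 were chosen after their values were seen. Some items under this rule are not reported here.

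Alternatives were the size factors of DESeq2, total counts or upper-quartile scaling, no filter or 10 counts in every library, the DESeq2 1.42.0 Wald test, limma 3.58.1 voom, the replicate number as a block, and each library left out in turn. The code of the tests was run on simulated counts with large changes only, which does not bear on small changes such as that of Ptges2.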

Additional observations from a re-analysis of the deposited data

How the results depend on the processing

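Ptgs2 stayed over 2-fold with an adjusted p below 0.05 in all 12 alternatives (log2 fold change 1.58 to 1.65), and Pla2g4a kept its call in all 12 (0.67 to 0.80). Ptgs1, Ptger1 and Ptger4 passed in none, with ranges of 0.30 to 0.47, 0.04 to 0.62 and 0.01 to 0.30. Ptges2 lost its call with total counts only (0.23, adjusted p 0.0866), upper-quartile scaling (0.26, 0.0556), no filter (0.28, 0.132) and the DESeq2 Wald test (0.27, 0.204), and ran from 0.16 to 0.38 when libraries were left out, lowest without IL-12 replicate 1. In these fits the lone library of a group was assumed to vary like the pair in the other. The DESeq2 Wald test called 2685 genes at an adjusted p below 0.05 against 4297 in the edgeR test, and 107 against 227 over 2-fold. Leaving out libraries gave 2796 to 3767 and 169 to 282 genes, and 1 to 3 changed genes among the other prostanoid genes (3 with all libraries, Ptgir included). With total counts only, 40.5% of changed genes were higher, against 52.8%. The rise in the Ptgs2 share of cyclooxygenase FPKM was 4.02 percentage points, 3.47 on raw counts and 3.80 to 4.25 without single libraries. Of the 42 genes in the 5 lists with an adjusted p below 0.05, Ptgir included, 26 kept the call under every alternative. Ptgir did not. Ptgis, Hpgd and Ptger2 could give no value. The cause of these shifts was not tested.

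With the replicate number as a block, 4341 genes changed and 241 of them passed 2-fold, with log2 fold changes of 1.62 for Ptgs2, 0.73 for Pla2g4a, 0.27 for Ptges2, 0.38 for Ptgs1, 0.31 for Ptger1 and 0.16 for Ptger4 and no member's call changed. The block ended the calls of Rela and Prkaca. Deviations of same-numbered libraries correlated at -0.027. A correlation over all genes tested cannot decide whether same-numbered libraries were handled together, and no source used here says whether they were. Depth limits Ptges, Ptgis, Hpgd and Ptger2. For Ptges a rise beyond 1.18-fold lay outside the interval for counting error, but a fall could not be told from no change. Ptgis, Hpgd and Ptger2 had under 3 reads in every library, so a difference between levels under that limit was not detectable.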

Other observations

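The other promoters that RefSeq gives for the members held few of the searched motifs in the 250 bases before the start. The GC box GGGCGG was found at 2 places for Ptges, 4 for Ptger4 and 1 for Hpgd, CCAAT at 1 place each for Ptger2 and Ptger4, and the E-box CACGTG at 1 place for Ptges2, where 32.7%, 33.8% and 6.02% of all promoters hold these motifs.

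Csf1r, a receptor gene of the macrophage lineage, had 405 and 434 reads in the control libraries against 219 and 236 in the IL-12 libraries (log2 fold change -0.88, adjusted p = 3.41e-06 by edgeR's quasi-likelihood test). Cd14, also on the leukocyte list, fell as well, while the leukocyte genes Ptprc and Adgre1 had 22 and 0 reads over the 4 libraries.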
